A study of Mus musculus with 6 samples.

Results

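Genes that decide whether a cell lives or dies were examined on whole mouse arrays of LSK-SLAM cells, the marrow fraction (Lin- c-Kit+ Sca-1+ CD150+ CD48-) that is enriched for HSC. The set held 43 genes: the BCL2 family, the caspases and their partners, the inhibitors of apoptosis, the death receptor pathway, and p53 with its regulators and targets. Members were found by the gene name that the array files give to each probe. A probe was present for 42 of them, of 23605 named genes on the array, and Bcl2a1a had none under that name. These 42 genes had 53 probes, and 9 of them had more than 1.

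The cells came from secondary recipients. E14.5 fetal liver cells of p190-B-/- embryos or of WT littermates (CD45.2+), on the C57BL/6J background, were first mixed with CD45.1+ competitor marrow and given to lethally irradiated CD45.1+ mice, and marrow of these mice was then given to the next hosts. p190-B is a RhoGAP encoded by Arhgap5, its loss is germline and lethal to the embryo, and both groups had passed through serial transplantation to a secondary host (2T). The groups are called 2T-WT and 2T-p190-B-/-, with 3 arrays each. The study describes 3 independent recipients per group and 3 separate isolations, without saying which recipients make up which array, so the p-values measure the spread between these samples. Neither the labels nor the description of the array experiment says that donor cells were separated from competitor and host cells by CD45. The RNA was amplified before it was labelled with Cy3.

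In the mitochondrial pathway of apoptosis, BCL2 and its pro-survival relatives hold BAX and BAK in check, and the BH3-only proteins release that hold. Cytochrome c then assembles APAF1 and caspase-9 into the apoptosome, which XIAP restrains and Smac frees again. Death receptors such as Fas take another route through FADD and caspase-8, with c-FLIP as its brake. p53, which MDM2 and MDM4 keep low, raises the transcription of several BH3-only genes and death receptors after DNA damage, and HSC are known to need MCL1 and to be shielded from irradiation by the loss of PUMA.

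The sequences of 6 of the probes are shown, for 5 members whose values are read through 1 stretch of the transcript or through probes that gave different values. Each has 60 bases, is written 5′ to 3′ as the files give it, and has at least 1 reading frame with no stop. Coordinates are those of the mouse build mm9 in the files, and no exon annotation of that build was used here.
Bcl2 (chr1:108608970-108609029, minus strand): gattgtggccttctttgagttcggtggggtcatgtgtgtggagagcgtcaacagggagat
Bcl2l1 (chr2:152655185-152655244, minus strand): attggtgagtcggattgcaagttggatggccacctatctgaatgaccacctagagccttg
Bcl2l11 (chr2:127972893-127983988, plus strand): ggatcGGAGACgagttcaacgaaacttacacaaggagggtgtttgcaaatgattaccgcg
Birc5, upstream probe (chr11:117711112-117711171, plus strand): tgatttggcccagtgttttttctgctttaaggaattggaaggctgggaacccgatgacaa
Birc5, brightest probe (chr11:117714057-117714116, plus strand): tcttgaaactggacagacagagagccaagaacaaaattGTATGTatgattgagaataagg
Trp53 (chr11:69404204-69404263, plus strand): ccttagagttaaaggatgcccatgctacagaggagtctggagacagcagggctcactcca

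In the Bcl2l11 probe, which spans 11096 bases of the genome and so crosses an intron, the capitals mark the codons for the glycine and aspartate at the core of the BH3 helix, the part of BIM that binds its pro-survival partners. In the brightest Birc5 probe they mark GTATGT, a run that opens with the GT found at the start of most introns. Read on the printed strand alone, this run is in 1.82% of all 39429 probes and in 3 of the member probes. A match describes the letters only.

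Values are the log2 of a probe's processed signal relative to the 75th percentile of its array. A difference is 2T-p190-B-/- minus 2T-WT on that scale, with its standard error (SE) from limma. The 75th percentile before scaling ranged from 53.9 to 227 in 2T-WT and from 252 to 385 in 2T-p190-B-/-. The lowest scaled signal that still counted as well above background differed as well, from -4.02 to -2.26 in 2T-WT and from -4.84 to -2.86 in 2T-p190-B-/-, so values under these limits have no order. The Arhgap5 probe was above background only on 2T-p190-B-/- array 2 and therefore checked no label. Of the 10 HSC markers looked at, 3 were above background on all 6 arrays, while Slamf1, the gene of the CD150 used in the sort, and Procr were above it on none. Array 3 of 2T-WT stood apart. Its 75th percentile, 53.9, was the lowest of the 6. Of the 24 members tested, 10 had their highest scaled value on it. Its summed signal of 7 B lymphocyte markers was 726, against 4.51 to 6.43 on the other 5 arrays. Cd79a made up most of it, at 9.47 on the log2 scale, and all 7 were above background on that array as on 2T-WT array 2 and 2T-p190-B-/- array 3. Its summed signal of 10 cycling markers was 135, against 8.15 to 27.7 elsewhere, again mostly through 1 gene, Mki67, at 6.87 on the log2 scale. Kif11 and Plk1 were highest on 2T-WT array 2, and Aurkb and Bub1 were above background nowhere. Of 7 T lymphocyte markers 5 were above background on all 6 arrays, with sums from 31.1 to 141, and so was Cd48, whose protein the sort excludes. The part of these signals in the values of the members was not tested, and the counts are given with and without that array.

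Many members were not above background. Of the 42 genes, 13 had a probe well above background on all 6 arrays, 11 on 3 to 5, 4 on 2 and 6 on 1, and 8 were above background on none: Bcl2l11, Bid, Bmf, Pmaip1, Xiap, Birc2, Sesn1 and Zmat3. Counted by probe, 12 of 53 (22.6%) were above background on no array, beside 16.8% of all probes, and 14 (26.4%) on all 6, beside 34.9%. The member probes that were above background nowhere had a median GC content of 35%, and those above it on all 6 arrays had 42.5%. Over all probes of the array, the same medians were 35% and 45%. Between 21 and 30 member probes were above background on the 2T-WT arrays and between 23 and 33 on the 2T-p190-B-/- arrays. Of the 53 probes, 8 (15.1%) were above background on a single array, beside 11.3% of all probes. Of these 8, 4 were on 2T-WT array 1 and 3 on 2T-p190-B-/- array 1, the arrays that held 8.13% and 40.3% of all such probes. 2T-WT array 1 was the only 1 of the 6 arrays on its slide, as was 2T-p190-B-/- array 3, and the other 4 shared a slide. A member not well above background has only an upper limit on its transcript, and this does not show that the gene was silent.

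**Figure D1:**
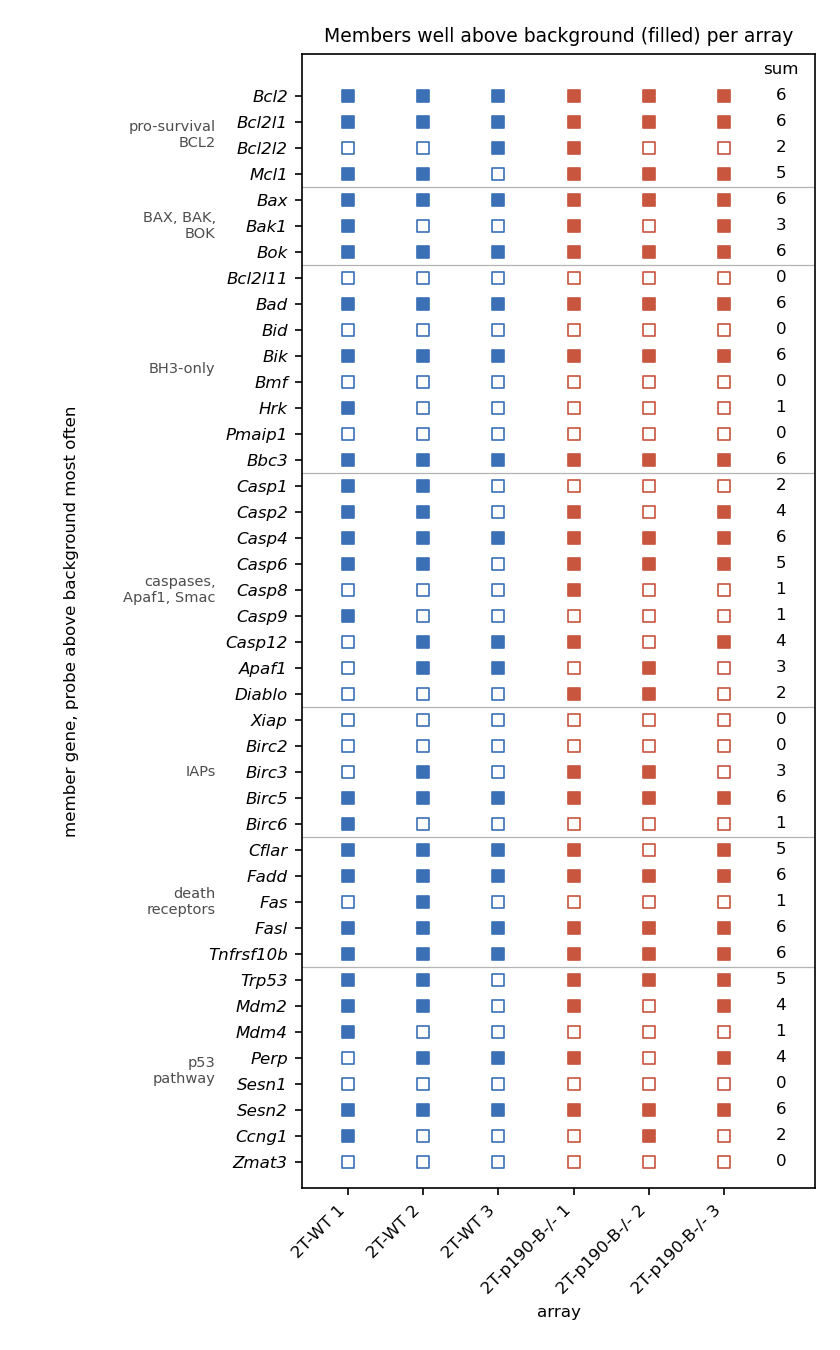
Filled squares mark arrays on which the member's probe was well above background and open squares those on which it was not, for the 42 members with a probe in order of their roles (rows) and the 6 arrays (columns), with the number of filled squares at the right; a gene with several probes is shown by the one above background most often. The 8 rows with a sum of 0 include 4 of the 8 BH3-only genes, and 13 rows are filled on all 6 arrays.

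For 24 members a probe was above background on at least 3 arrays, and these were tested by the brightest such probe. All 24 were measured in both genotypes. None passed an adjusted p of 0.05 in limma, as did 0% of the 16011 genes tested. The smallest adjusted p of a member was 0.637, and 1 member, Tnfrsf10b, had an unadjusted p under 0.05, a share of 4.17% beside 6.16% of all genes. The values of 16 members were lower in 2T-p190-B-/- and those of 8 were higher, with a median difference of -0.38 (quartiles -1.23 and 0.11). Over all genes tested the median was -0.36 (quartiles -1.11 and 0.47), and 61.8% were lower, beside 66.7% of the members. Without 2T-WT array 3, 18 of the 24 were lower, with a median of -0.20 beside -0.27 for all genes. The SE of a single member was between 0.68 and 1.69 on the log2 scale, and 3 arrays a group allow no finer reading.

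The genotypes did not overlap in 1 of the 24 members, Tnfrsf10b, where all 2T-p190-B-/- arrays were below all 2T-WT arrays. In these sorted samples, fewer cells with a transcript and less of it per cell cannot be told apart. Among all genes tested, 16.3% did not overlap in either direction and 12.1% did so with 2T-p190-B-/- lower. The threshold of the study's own gene lists, run here as Student's t-test with an unadjusted p of 0.05 or less and a difference of at least 2-fold, is called the methods' threshold below. It also took only Tnfrsf10b, beside 6.5% of all genes in either direction and 4.48% with 2T-p190-B-/- lower. The share of the members was 4.17% in each count, no higher than these shares of the whole array. Without 2T-WT array 3, 3 members did not overlap (Bik, Casp2 and Tnfrsf10b), 12.5% beside 24.5% of all genes, and 0 passed the methods' threshold.

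**Figure D2:**
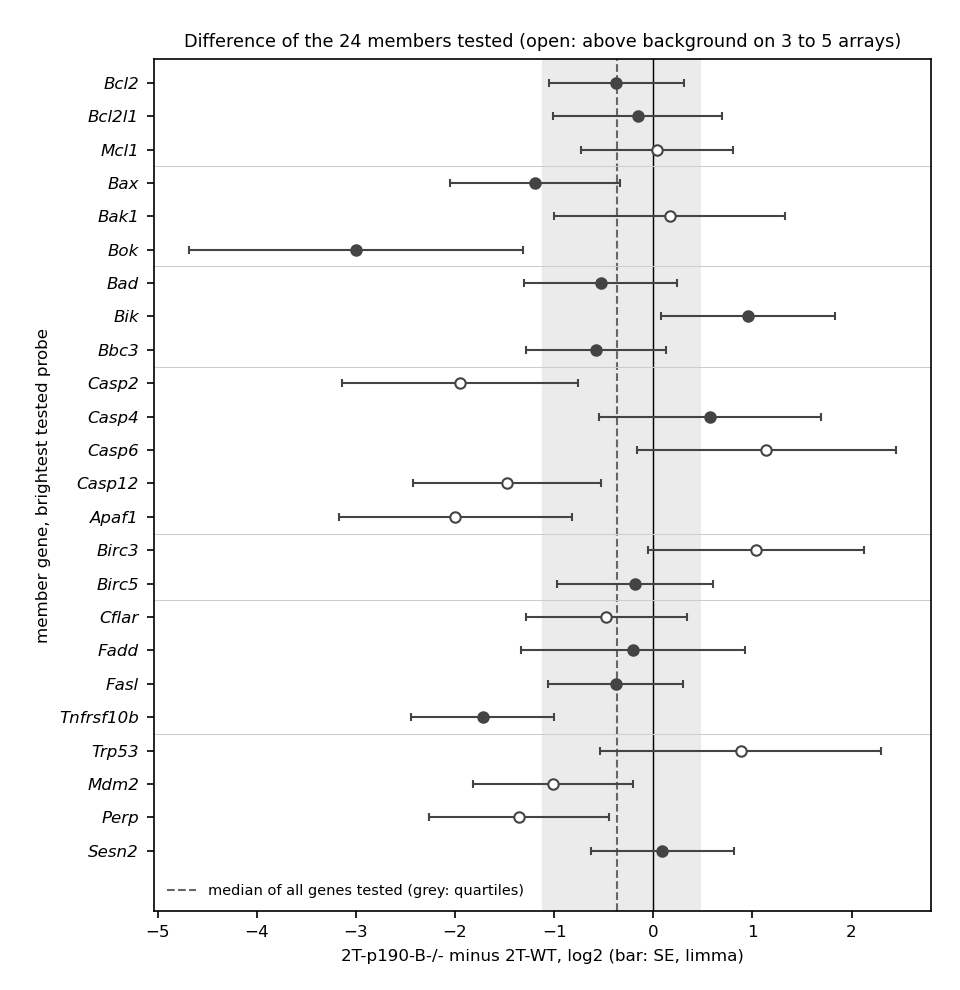
Points give the difference of each of the 24 tested members (2T-p190-B-/- minus 2T-WT, log2) and bars its SE from limma; filled points were above background on all 6 arrays, open ones on 3 to 5, the dashed line is the median of all genes tested (-0.36) and the grey band their quartiles (-1.11 and 0.47). Of the 24 points, 12 lie inside the band, and Bok at -3.00 has the widest bar, with an SE of 1.69.

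Of the pro-survival BCL2 genes, none differed between the genotypes by the test. Bcl2, the founding member of the family, read 4.66, 3.87 and 4.59 in 2T-WT (arrays 1 to 3) and 3.93, 3.60 and 4.47 in 2T-p190-B-/- (in the same order). The groups overlapped, with a difference of -0.37 (SE 0.68, limma adjusted p = 0.864), and its sign turned under another background correction and under quantile normalization. Bcl2l1, the gene of BCL-XL, had a pair of tested probes whose differences had opposite signs. Its brightest probe (chr2:152606404-152606463) read -0.67, 1.29 and 0.67 in 2T-WT and -0.01, 1.38 and -0.56 in 2T-p190-B-/-, a difference of -0.16 (SE 0.85, adjusted p = 0.962). The probe printed above, in the open frame, was at -4.19, -0.59 and -2.17 in 2T-WT and 0.44, 0.56 and -1.82 in 2T-p190-B-/-. It had a difference of 2.05 (SE 1.11, adjusted p = 0.637), and of its 6 values those of 2T-WT arrays 1 and 3 were not above background. The probes lie 48721 bases apart on mm9, and of the 4 members with several tested probes Bcl2l1 was the only one whose probes differed in sign. Those of Casp4, which is among the 4, cover nearly the same stretch.

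Mcl1, on which HSC are known to depend, was above background on 5 arrays through 1 of its 2 probes. It read -1.67, -2.45 and -3.05 in 2T-WT and -3.08, -2.53 and -1.44 in 2T-p190-B-/-, and the difference of 0.04 (SE 0.77, adjusted p = 0.991) was far inside the spread of either group. The other Mcl1 probe was above background on no array. Bcl2l2, the gene of BCL-W, was above background on 2T-WT array 3 and 2T-p190-B-/- array 1 alone and was not tested.

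Among the multidomain pro-apoptotic genes, Bax was measured on every array and Bak1 on 3. Bax, whose protein opens the outer mitochondrial membrane, read 2.51, 2.16 and 4.61 in 2T-WT and 1.31, 2.01 and 2.40 in 2T-p190-B-/-. Its difference was -1.19 (SE 0.86, adjusted p = 0.658). Its highest value was on 2T-WT array 3, which had the B lymphocyte signal and the lowest 75th percentile. Before scaling, Bax read 708, 1016 and 1320 in 2T-WT and 953, 1290 and 1327 in 2T-p190-B-/-. The part of the scaling or of the B lymphocyte signal in the difference was not tested. Without 2T-WT array 3 the difference was -0.43, and with 2T-p190-B-/- array 3 left out instead the groups did not overlap. Bak1, the partner of Bax, read -1.22, -5.68 and -4.13 in 2T-WT and -4.34, -3.55 and -2.65 in 2T-p190-B-/-, a difference of 0.16 (SE 1.16, adjusted p = 0.971). Only its values on 2T-WT array 1 and 2T-p190-B-/- arrays 1 and 3 were above background. Bok, a relative with a less settled role, read 5.29 on 2T-WT array 1 and between -2.72 and -0.25 on the other 5. The difference of -3.00 (SE 1.69, adjusted p = 0.637) therefore rested on that array, and it was -0.92 without it.

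Of the 8 BH3-only genes, 3 were above background on all 6 arrays, 1 on a single array and 4 on none. Bbc3, which encodes the p53 target PUMA, was above background on all 6 arrays, at 2.38, 2.86 and 3.53 in 2T-WT and 2.31, 1.81 and 2.91 in 2T-p190-B-/-. The groups overlapped by the range between 2.38 and 2.91, and the difference was -0.58 (SE 0.71, adjusted p = 0.792). Bad, whose protein is switched off by growth factor signals, read 3.66, 2.49 and 4.29 in 2T-WT and 2.57, 2.63 and 3.64 in 2T-p190-B-/- on its brighter probe, a difference of -0.53 (SE 0.77, adjusted p = 0.830). Its second probe was above background on 2T-p190-B-/- array 1 alone. Bik, which acts at the endoplasmic reticulum, had the only positive difference of the role, 0.95 (SE 0.88, adjusted p = 0.719), with 2T-p190-B-/- array 1 highest at 1.09 and the other 5 arrays between -1.78 and -0.92. Without that array it was 0.16.

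Bcl2l11, which encodes BIM, gave no signal above background on any array through the probe that covers its BH3 codons. It lay between -6.23 and -4.44, below the limit of every array. Pmaip1, the gene of the p53 target NOXA, lay between -7.12 and -4.45 and was likewise above background nowhere. Bid, the link between caspase-8 and the mitochondria, and Bmf, whose protein is held at the cytoskeleton, were also above background on no array. Hrk was above background on 2T-WT array 1 alone, at -0.48. With the other 2T-WT arrays taken as read, its 2T-WT mean was 1.47-fold over the limits of 2T-p190-B-/-. That value rests on 2T-WT array 1 and is not a minimum.

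**Figure D3:**
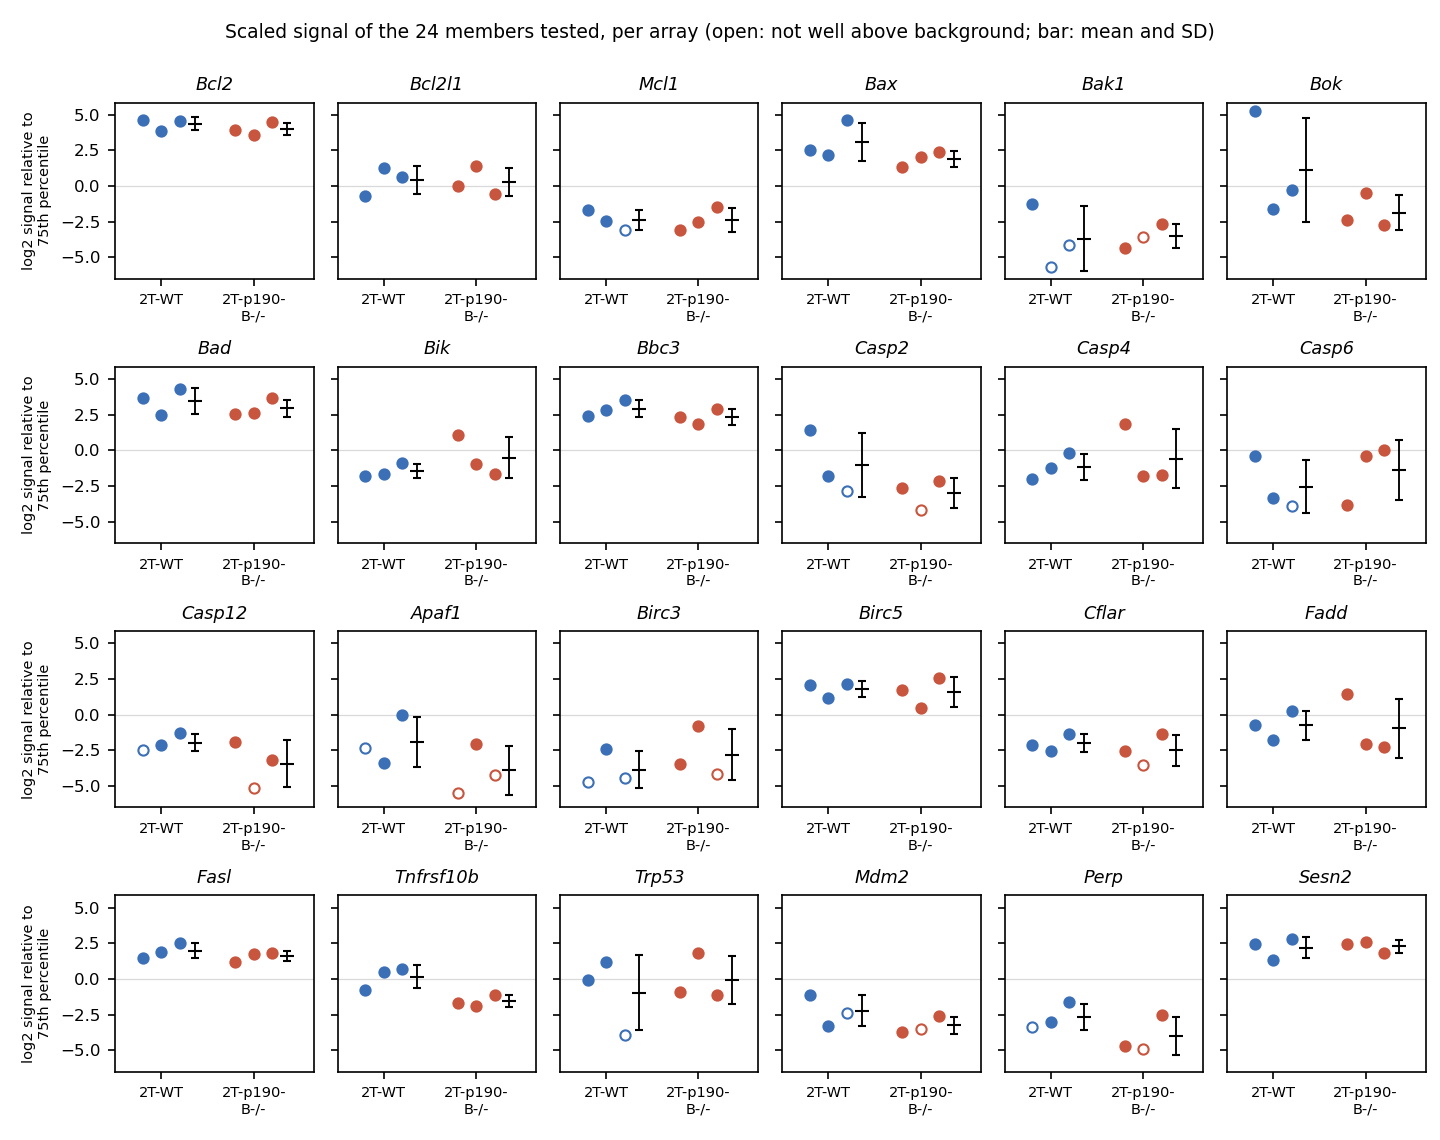
Points give the log2 signal relative to the 75th percentile of the array for each of the 24 tested members, with 2T-WT arrays 1 to 3 in blue and 2T-p190-B-/- arrays 1 to 3 in red from left to right; open points were not well above background and bars give the mean and SD of 3 arrays. The 2 groups overlap in every panel but that of Tnfrsf10b, and single arrays set the spread of Bok, Bak1, Casp2 and Trp53.

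Of the 9 genes of caspases, Apaf1 and Smac, 5 were tested, 3 with lower and 2 with higher values in 2T-p190-B-/-, and all of them overlapped. Casp8, the initiator under the death receptors, was above background on 2T-p190-B-/- array 1 alone, at -4.03. Casp9, the initiator of the apoptosome, was above background on 2T-WT array 1 alone, at -1.07. Neither initiator could therefore be compared between the genotypes. Apaf1, the scaffold of the apoptosome, was above background on 2T-WT arrays 2 and 3 and 2T-p190-B-/- array 2. It ranged from -3.39 to -0.01 in 2T-WT and from -5.47 to -2.06 in 2T-p190-B-/-, a difference of -2.00 (SE 1.17, adjusted p = 0.637), and it was -1.04 without 2T-WT array 3.

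Casp2, an initiator linked to p53, had a difference of -1.95 (SE 1.19, adjusted p = 0.637), with 2T-WT array 1 at 1.45 and the other 5 arrays between -4.21 and -1.77, and it was -0.69 without that array. The lowest Casp2 value of each group, on 2T-WT array 3 and 2T-p190-B-/- array 2, was not above background. Casp6, an executioner, had the opposite sign at 1.14 (SE 1.31, adjusted p = 0.778), with 2T-WT array 1 and 2T-p190-B-/- arrays 2 and 3 between -0.40 and 0.01 and the other 3 arrays between -3.88 and -3.34. Its value on 2T-WT array 3 was not above background. Diablo, the gene of Smac, was above background on 2T-p190-B-/- arrays 1 and 2 alone.

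The inflammatory caspases differed among themselves. Casp4 had a difference of 0.58 (SE 1.12, adjusted p = 0.874). It was set by 2T-p190-B-/- array 1 at 1.84, while the other 5 arrays lay between -2.02 and -0.20. The second tested Casp4 probe gave 0.83, but it covers nearly the same stretch on mm9 and is no separate reading. Casp12 had a difference of -1.48 (SE 0.95, adjusted p = 0.637), ranging from -2.47 to -1.28 in 2T-WT and from -5.18 to -1.94 in 2T-p190-B-/-, and it was -0.61 without 2T-p190-B-/- array 2. The Casp12 values on that array and on 2T-WT array 1, the lowest of their groups, were not above background. Casp1, which activates interleukin-1β, was above background only on 2T-WT arrays 1 and 2, at 0.74 and -0.07. It read -3.70 on 2T-WT array 3 and -6.16, -4.96 and -6.01 in 2T-p190-B-/-, and none of these was above background. With the signal of 2T-WT array 3 taken as read, the 2T-WT mean of Casp1 was 7.05-fold over the limits of 2T-p190-B-/-. That signal has only an upper limit, so the fold is not a minimum, and it rests on 2 of 3 arrays. Casp1 missed the requirement of 3 arrays, and without that filter limma gave a difference of -4.70 with an adjusted p of 0.688.

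Xiap, the inhibitor that binds active caspases directly, was above background on no array, with signals between -7.06 and -4.46. Birc2, the gene of cIAP1, was above background nowhere either. Birc3, its relative cIAP2, was above background on 2T-WT array 2 and 2T-p190-B-/- arrays 1 and 2, with a difference of 1.04 (SE 1.09, adjusted p = 0.758) that was 0.034 without 2T-p190-B-/- array 2. Birc6 was above background on 2T-WT array 1 alone, at 0.69. With the other 2T-WT arrays taken as read, its 2T-WT mean was 1.54-fold over the limits or, where higher, the signals of 2T-p190-B-/-. That value rests on 2T-WT array 1 and is not a minimum.

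Birc5, the gene of survivin, which serves the mitotic spindle as well as survival, was above background on all 6 arrays through 2 of its 3 probes. The brightest probe, the printed one with the GTATGT run, read 2.07, 1.15 and 2.12 in 2T-WT and 1.75, 0.49 and 2.54 in 2T-p190-B-/-. The difference was -0.19 (SE 0.79, adjusted p = 0.948), smaller than the spread within either group. The upstream probe read -1.71, -0.30 and -0.43 in 2T-WT and -0.76, -2.44 and 0.14 in 2T-p190-B-/-, a difference of -0.21 (SE 0.88, adjusted p = 0.948). A further probe, above background on 4 arrays, gave -1.69 (SE 1.22, adjusted p = 0.658), with 2T-WT array 3 highest at 0.07. All 3 probes had negative differences and none passed the test, and under normexp background correction the brightest turned to 0.38.

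All 4 tested genes of the death receptor pathway had lower values in 2T-p190-B-/-, and the largest difference was that of Tnfrsf10b, the only 1 of the 4 that kept its direction in every alternative. Fasl turned under normexp background correction, Fadd on the slide with both genotypes and with each of 3 arrays left out, and Cflar with 1 array left out. Tnfrsf10b, a p53 target, encodes the mouse receptor for TRAIL, and its probe (chr14:70184141-70184200, plus strand) was above background on all 6 arrays. It read -0.75, 0.51 and 0.71 in 2T-WT and -1.68, -1.90 and -1.11 in 2T-p190-B-/-, so that the highest 2T-p190-B-/- array lay below the lowest 2T-WT array. The difference was -1.72 (SE 0.73), with an unadjusted limma p of 0.044 and an adjusted p of 0.637. The exact two-sided permutation p was 0.1, the smallest that the design allows. The groups stayed apart in every alternative that was run, with differences between -2.40 and -1.38. Within the slide that held both genotypes, with 2 arrays each, the difference was -2.40. Every alternative scaled or quantile-normalized the arrays. Before scaling the signals overlapped, at 74.2, 324 and 88.0 in 2T-WT and 120, 85.6 and 117 in 2T-p190-B-/-. The part of the scaling in the separation was not tested. Tnfrsf10b no longer passed the methods' threshold when 2T-WT array 2 or 3 or 2T-p190-B-/- array 1 or 2 was left out. Nor did it pass with the replicate number as a block, or on the linear signal.

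Fas, the best known death receptor, was above background on a single array. 2T-WT array 2 read 2.94, and the other 2T-WT arrays (-4.50 and -4.48) and all of 2T-p190-B-/- (-7.11, -5.12 and -6.06) were below their limits. With the other 2T-WT arrays taken as read, the 2T-WT mean of Fas was 3.52-fold over the limits of 2T-p190-B-/-. That value rests on 1 of the 3 arrays and is not a minimum. Fasl, its ligand, was above background everywhere, with 1.48 to 2.51 in 2T-WT and 1.17 to 1.84 in 2T-p190-B-/- and a difference of -0.38 (SE 0.68, adjusted p = 0.862). Fadd, the adaptor, had a difference of -0.20 (SE 1.13, adjusted p = 0.963), with 2T-p190-B-/- array 1 the highest of the 6 at 1.44 and 2T-p190-B-/- array 3 the lowest at -2.26. Cflar, the gene of c-FLIP, had differences of -0.47 (SE 0.81, adjusted p = 0.854) and -0.15 on its 2 tested probes, and its remaining probe was above background nowhere.

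**Figure D4:**
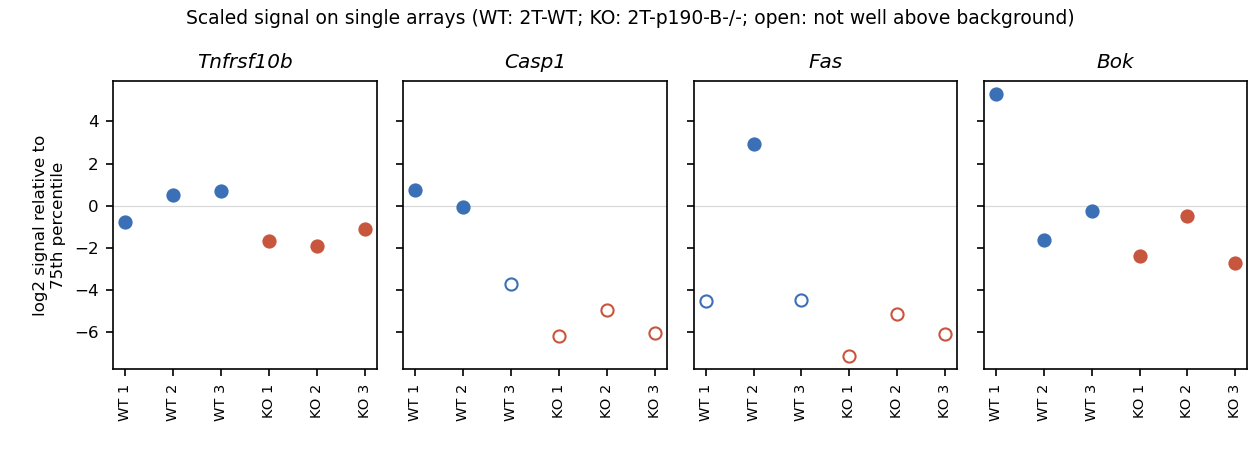
Points give the log2 signal relative to the 75th percentile for the 6 arrays of Tnfrsf10b, Casp1, Fas and Bok, with 2T-WT (WT) in blue, 2T-p190-B-/- (KO) in red and open points for arrays on which the probe was not well above background. Tnfrsf10b was measured on all 6 arrays and its groups are apart, whereas Casp1 was above background on 2 arrays, Fas on 1, and Bok is high on 2T-WT array 1 alone.

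Of p53, its regulators and its targets, 4 of 8 genes were tested and their signs were divided evenly. Trp53 itself, through the printed probe, read -0.09, 1.15 and -3.94 in 2T-WT and -0.91, 1.84 and -1.16 in 2T-p190-B-/-. Its lowest value, on 2T-WT array 3, was the only one not above background, and the difference of 0.88 (SE 1.42, adjusted p = 0.847) turned to -0.61 without that array. Mdm2, both a p53 target and the ligase that degrades p53, read -1.11, -3.27 and -2.36 in 2T-WT and -3.71, -3.48 and -2.58 in 2T-p190-B-/-. The groups overlapped, with a difference of -1.01 (SE 0.81, adjusted p = 0.683) that was -0.44 without 2T-WT array 1. The values on 2T-WT array 3 and 2T-p190-B-/- array 2 were not above background. Mdm4 was above background on 1 array through each of its 2 probes, 2T-WT array 1 for the first and 2T-p190-B-/- array 1 for the second.

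Among the targets, Sesn2, a stress sensor upstream of mTORC1, was above background on all 6 arrays, at 1.35 to 2.77 in 2T-WT and 1.79 to 2.61 in 2T-p190-B-/-, with a difference of 0.09 (SE 0.72, adjusted p = 0.974). Perp, a membrane protein, had a difference of -1.35 (SE 0.91, adjusted p = 0.640), with 2T-WT at -3.37 to -1.62 and 2T-p190-B-/- at -4.89 to -2.50. The lowest value of each group, on 2T-WT array 1 and 2T-p190-B-/- array 2, was not above background. Ccng1, the gene of cyclin G1, was above background on 2T-WT array 1 at 0.16 and 2T-p190-B-/- array 2 at -1.58, while the other 4 arrays lay between -6.84 and -4.05. It was not tested, and neither genotype had a level shared by its arrays. Sesn1 and Zmat3 were above background on no array.

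The rest of both pathways was read from lists of other genes. Of 24 other genes of the apoptosis machinery, 16 were tested, 10 with lower and 6 with higher values in 2T-p190-B-/- and a median difference of -0.25. No gene passed the adjusted p or the methods' threshold, and 3 did not overlap, all lower in 2T-p190-B-/-: Bag1, a co-chaperone that binds BCL2 (-1.32, SE 0.79), Bcl2a1d, a pro-survival relative of BCL2 (-2.46, SE 1.08), and Tnf, the ligand (-1.86, SE 1.05), each with a limma adjusted p of 0.64. A second Bag1 probe, which overlaps the first on mm9, was above background on 2T-p190-B-/- arrays 1 and 3 alone, at 1.74 and -3.09. Its difference of 2.14 had the opposite sign, rests on 2T-WT values below the limits and was not tested. Bcl2a1d is one of several near-identical copies, so its signal may come from any of them. Bcl2a1d and Tnf were each above background on 3 arrays, so part of their order rests on values below the limits. Of 28 other genes of the p53 pathway, 15 were tested, 10 lower and 5 higher with a median of -0.73. Again 2 did not overlap, Cdkn2a, which encodes ARF and p16 (-1.59, SE 0.76), and Pidd1, the p53-induced activator of caspase-2 (-1.32, SE 0.67). Each had a limma adjusted p of 0.64. The second probe of each was above background on 1 array alone and was not tested. That array was 2T-WT array 2 for Cdkn2a and 2T-p190-B-/- array 1 for Pidd1. Of the 15, Pidd1 alone passed the methods' threshold, beside 6.5% of all genes in either direction and 4.48% with 2T-p190-B-/- lower. The shares without overlap were 18.8% and 13.3% of the genes tested in these lists, all lower in 2T-p190-B-/-. Of all genes, 16.3% did not overlap in either direction and 12.1% did so with 2T-p190-B-/- lower.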

How the data were processed

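RNA of LSK-SLAM cells was measured on 6 single-colour Agilent arrays, 3 per genotype. The groups came from the labels. The authors deposited the Feature Extraction 10.5.1.1 output of each array, whose processed signal is a linear intensity with the background removed and with no scaling between arrays, and 1 value per spot that is the same intensity divided by a constant of the array. Control and outlier spots were left out, and 0 spots were saturated. The log2 of the deposited processed intensity, minus that of the 75th percentile of the array, was averaged over repeated spots. Probes well above background on at least 3 arrays (25160 probes of 16011 genes) were tested with limma 3.58.1 (lmFit, eBayes; R 4.3.3) on all arrays with no covariates and Benjamini-Hochberg adjustment over these probes. A gene was represented by its brightest tested probe. Folds over the limits set the mean of the measured group against the other group. On each array of the latter, the higher of the probe's signal and the lowest signal well above background was used. Signals of the measured group below their limits were taken as read, so these folds are not strict minima. The methods name Student's t-test with no threshold; the test was run two-sided with equal variance on the same values, with the p of 0.05 and 2-fold difference stated over the study's gene lists, here called the methods' threshold. Of 39429 probes, 26412 were named by accession and 4589 by gene name through a RefSeq table, and 8428 had no name in it. Those of the 8428 that were above background on at least 3 arrays were tested as probes but are in no count of genes. Members were taken by the name in the files.

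Each member is named, and all 6 values are given, where measured, for Trp53, Mdm2, Ccng1, Bcl2, Bcl2l1, Mcl1, Bcl2l11, Bbc3, Pmaip1, Bax, Bak1, Casp8, Casp9, Xiap, Birc5 and Fas and for members without overlap or past the methods' threshold. Of other genes of the pathways, counts are given with the values of those without overlap or past that threshold. The members, the lists and this rule were chosen with earlier results of these data known. Alternatives were normexp background correction (offset 50), quantile normalization, the authors' processed values, dim probes kept, only probes above background throughout, the slide as a random block or the mixed slide alone, a replicate block, robust variance with an intensity trend, the mean over a gene's probes, limma's unadjusted p or the linear signal in the methods' test, and each array left out. The steps were tested on simulated data. Of the markers chosen for B lymphocytes, 1 was left out of the list and is not reported here.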

Additional observations from a re-analysis of the deposited data

How the results depend on the processing

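No member passed an adjusted p of 0.05 in limma in any alternative, and the smallest adjusted p of a member was 0.343, under normexp background correction. The median difference of the members stayed negative throughout, between -0.81 without the filter on dim probes, where that of all genes was -0.53, and -0.17 under quantile normalization, where it was -0.14. Without 2T-WT array 2 it was -0.67 beside -0.39. The count of members without overlap, 1, was 3 under normexp (23.2% of all genes) and 4 without the filter (15.3%). Of these 4, Bcl2l2, Casp1 and Fas rest on values below background. It was 6 on the slide with both genotypes, where 2 arrays against 2 left 46.0% of all genes apart. With each array left out it was 2 to 7, beside 23.2% to 32.8% of all genes. The 7 of 24 came without 2T-WT array 2, where 31.5% of all genes did not overlap. The count past the methods' threshold, 1, was 2 without the filter (with Casp1), 0 with the replicate block, 0 on the linear signal and 0 to 1 when each array was left out. Same-numbered arrays did not deviate together (correlations 0.01, 0.02 and 0.09), so the numbers were not taken to pair the samples. The filters, the authors' values, the replicate block and the intensity trend leave the difference of a member as it was by construction. Over the other alternatives 15 members turned sign at least once and 9, among them Tnfrsf10b, Bax and Mdm2, did not. Under quantile normalization Bcl2 was at 0.30. Under normexp Bcl2 was at 0.62, Bad 0.37, Bbc3 0.20, Fasl 0.12, Birc5 0.38, Trp53 -0.024, Casp6 -0.098, Mcl1 -0.78, Birc3 -0.73 and Bak1 -1.01. On the slide with both genotypes Fadd was at 0.45 and Mcl1 at -0.056, and the mean over its probes put Bcl2l1 at 0.95. With each array left out, the difference ran from -0.32 to 0.39 for Sesn2, from -0.71 to 0.27 for Bcl2l1, from -0.84 to 1.39 for Bak1, from -0.61 to 1.94 for Trp53, from -1.40 to 0.45 for Fadd, from -0.42 to 0.40 for Mcl1, from -0.63 to 1.20 for Casp4, from -0.66 to 0.37 for Birc5 and from -1.04 to 0.044 for Cflar. The cause of these turns was not tested. Signal over background limits the rest: 18 of the 42 genes with a probe had none on 3 arrays.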
